A study of Mus musculus with 2 samples.

Results

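S100a4, also called Fsp1 (fibroblast-specific protein 1), was followed through bone marrow cells by single-cell RNA-sequencing (sc-RNA-seq). It is 1 gene of the 13211 genes listed for these libraries, chosen by name because its promoter names the Cre driver of the study. The rule uses no measured value, but the gene was picked with earlier results of these data known. Marrow was flushed from femur and tibia of mice 2 months old, and live cells were sorted. Col1a1fspKO mice carried Fsp1-Cre and 2 floxed Col1a1 alleles (Fsp1-Cre;Col1a1flox/flox), so that exons 2 to 5 of Col1a1 are removed where Cre acts. The WT littermates were Cre-negative;Col1a1flox/flox, so both groups carried the floxed alleles and no group had an unmodified Col1a1. Cells of 2 mice were pooled per genotype, and 1 library was made from each pool. No statistical test between genotypes was therefore possible. Every interval here is a 95% interval, exact except for differences of shares, that covers counting error only, and none covers differences between mice.

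S100A4 is a small calcium-binding protein of the S100 family. On binding calcium it exposes a surface that holds partner proteins, among them non-muscle myosin IIA and annexin A2, and it is linked to cell motility. Although it is used as a fibroblast marker, S100A4 is also known from monocytes, macrophages and activated lymphocytes, which is why the cells that carry its transcript in marrow are of interest when its promoter drives Cre.

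In the GENCODE annotation of GRCm38, which is the assembly that mm10 denotes, S100a4 (ENSMUSG00000001020.8) lies at chr3:90603771-90606045 on the plus strand. It has 3 exons. Exon 1 (chr3:90603771-90603806) is 5′ UTR, the start codon is in exon 2 (chr3:90604997-90605152), and exon 3 (chr3:90605740-90606045) holds the end of the coding sequence and the 3′ UTR. S100a3 ends upstream of it and S100a5 begins downstream. The annotated gene Gm42674 overlaps it on the same strand, and that name was not listed in either library. The 250 bases before the RefSeq start of S100a4 (GRCm38.p6, chr3:90603520-90603769, plus strand) are shown because the Cre driver is named for this promoter. The extent of the promoter fragment in the transgene is not given in the sources used here. Capitals mark a TATAAA match.

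S100a4 upstream: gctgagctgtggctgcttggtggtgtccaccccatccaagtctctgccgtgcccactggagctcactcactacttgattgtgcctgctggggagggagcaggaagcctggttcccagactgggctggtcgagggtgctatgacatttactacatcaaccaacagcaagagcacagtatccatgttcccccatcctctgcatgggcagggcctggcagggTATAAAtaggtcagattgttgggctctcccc

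TATAAA was found once, beginning 31 bases before the start, and 12.4% of 32851 windows of the same length held it on either strand. GAGGAA, a core of sites of the myeloid factor PU.1, and TTGCNNAA, a C/EBP pattern, were not found on either strand of this window, against 23.3% and 9.56% of all windows. These matches describe letters only and say nothing of binding.

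The libraries were of similar depth. Col1a1fspKO had 8647722 unique molecular identifiers (UMIs, each counting 1 captured mRNA molecule) over 1309 cells with a median of 4954 per cell, and WT had 8624469 over 1169 cells with a median of 5534. The shallowest cell had 2540 UMIs, so that each cell could be thinned to 2500 UMIs without losing a cell. 2 barcode sequences occurred in both libraries. The cells fell into 15 clusters, with all S100 genes left out of the genes used for clustering. Monocyte-like clusters were those with a mean marker score of at least 1 for Csf1r, F13a1, Ccr2, Ly86, Fn1 and Ms4a6c, and no other cluster scored above 0.215. These were cluster 0 (led by Wfdc17, Sirpb1c and Clec4a3), cluster 9 (Ass1, Lgals1 and Klf4) and cluster 11 (Klf4, Ass1 and Fn1). Cluster 0 also scored 1.93 for nonclassical monocyte markers, beside 1.88 for the monocyte list. Cluster 9 scored almost as high for granulocyte-monocyte progenitor markers (1.37) as for monocyte markers (1.39).

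S100a4 was concentrated in the monocyte clusters. They held 20.4% of the cells and 1916 of 2026 S100a4 UMIs in Col1a1fspKO, which was 94.6% (93.5 to 95.5). In WT they held 23.6% of the cells and 2090 of 2184 S100a4 UMIs, which was 95.7% (94.8 to 96.5). The level was 975 UMIs per 1000000 UMIs (CPM) in the monocyte clusters and 16.5 in the other cells of Col1a1fspKO, a 59.2-fold difference (48.9 to 72.5). In WT it was 1079 and 14.1 CPM, a 76.7-fold difference (62.4 to 95.4). These folds depended on how cells were assigned: on the log2 scale they were 5.89 and 6.26, against 4.39 and 4.31 with single cells assigned by marker score, and 6.30 and 7.58 without other cells holding 5 or more monocyte marker UMIs. Among 9725 genes with at least 50 UMIs, 968 (9.95%) were more than 2-fold higher in the monocyte clusters in both libraries. Only 35 of those tested (0.36%) had 90% or more of their UMIs there in both libraries, and S100a4 was one of them. Ms4a6c, Fn1 and F13a1 were too, but these markers had been used to choose the monocyte clusters. Klf4 and Pid1, which were not on that marker list, were also among the 35.

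**Figure D1:**
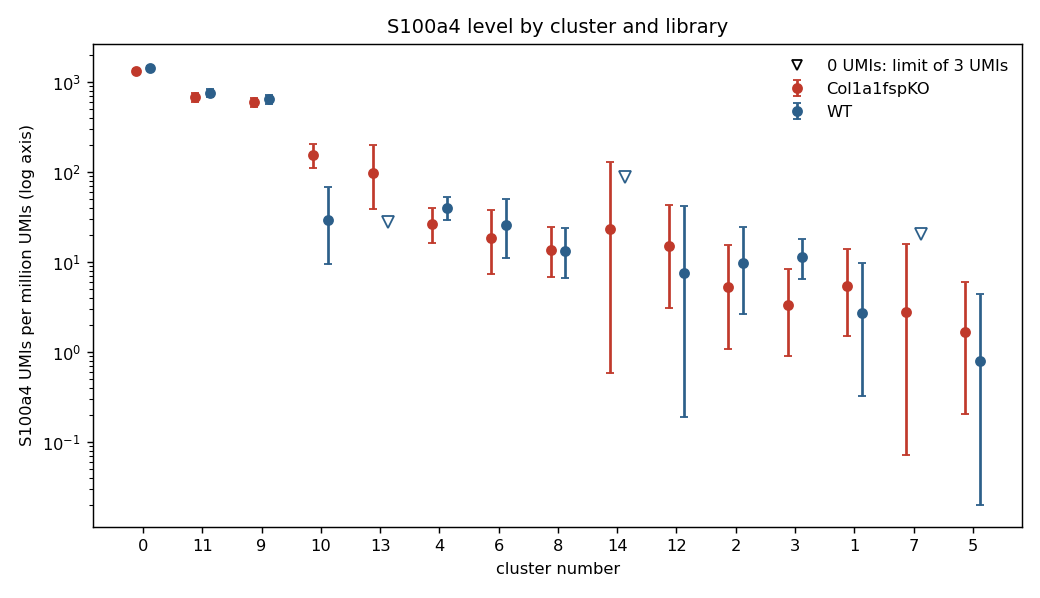
S100a4 level in each of 15 clusters (x axis, ordered by the mean of both libraries) on a log axis in CPM. Points are the 2 libraries, bars are 95% counting intervals, and open triangles mark clusters with 0 UMIs at the limit of 3 UMIs. Clusters 0, 11 and 9 lie at 595 CPM or above and every other cluster lies at 154 CPM or below.

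By level in CPM, cluster 0 stood highest in both libraries. In Col1a1fspKO it reached 1343 CPM (1270 to 1419), and the WT value was 1439 CPM (1365 to 1516). Cluster 11 followed with 679 CPM (605 to 760) and 765 CPM (686 to 850), and cluster 9 with 595 CPM (533 to 662) and 647 CPM (579 to 722). The intervals of cluster 0 did not overlap those of clusters 9 and 11. Cluster 0 was 2.26-fold (2.0 to 2.55) above cluster 9 in Col1a1fspKO and 2.22-fold (1.97 to 2.51) in WT. Clusters 11 and 9 were close, with ratios of 1.14 (0.975 to 1.34) and 1.18 (1.01 to 1.38). Cells of cluster 0 were shallower, with median depths of 5442 and 5113 UMIs. Cluster 11 had medians of 10966 and 10283.5, and cluster 9 of 8787 and 9333. Counts per cell lay closer together than CPM, with a median of 7 S100a4 UMIs in clusters 0 and 11 and 6 in cluster 9 in both libraries.

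Ordered by the mean of both libraries, cluster 10 came next, whose leading genes included Ccl5, Gzma and Cd3g of T and natural killer cells, where Col1a1fspKO had 154 CPM (112 to 206) but WT had 29.2 CPM (9.47 to 68.1), less than cluster 4 of WT. Cluster 4, led by Fcnb and matching preneutrophils, had 26.3 CPM (16.5 to 39.9) and 40.3 CPM (29.5 to 53.7). Cluster 8, led by Mpo, Elane and Cd34, had 13.6 CPM (6.79 to 24.3) and 13.4 CPM (6.68 to 23.9). B cells of cluster 6, led by Ms4a1, had 18.4 CPM (7.39 to 37.9) and 25.6 CPM (11.1 to 50.5). Among these 3 clusters the intervals overlapped in Col1a1fspKO, and in WT only cluster 4 lay above cluster 8. Plasmacytoid dendritic-like cells of cluster 12, led by Siglech, gave 3 and 1 UMIs. The pro-B and pre-B cells of cluster 3, led by Igll1 and Vpreb3, had 3.32 CPM (0.903 to 8.49) and 11.3 CPM (6.45 to 18.3), and the 23 cells of cluster 14, also of this kind, gave 1 and 0 UMIs. The basophil-like cluster 13 gave 7 UMIs from 1 cell in Col1a1fspKO and 0 in 18 cells of WT, which allows a share of cells with a UMI of up to 16.7% by a limit of 3 counts and 18.5% by the exact interval. The erythroid cells of cluster 5, with Car2 and Klf1 among its leading genes, were among the lowest, with 2 UMIs in Col1a1fspKO (1.68 CPM, 0.204 to 6.07) and 1 UMI in WT (0.796 CPM, 0.0201 to 4.43).

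Nearly every monocyte carried the transcript. At least 1 S100a4 UMI was seen in 261 of 267 cells of the monocyte clusters in Col1a1fspKO (97.8%, 95.2 to 99.2) and in 274 of 276 in WT (99.3%, 97.4 to 99.9). The share in erythroid cells, which should lack the gene, was 2.11% (2 of 95 cells, median depth 9422 UMIs) and 1.06% (1 of 94 cells, median depth 11793.5). Median depth in the monocyte clusters was lower, at 5951 and 5811.5 UMIs. With each cell thinned to 2500 UMIs the monocyte shares were 87.3% (82.7 to 91.0) and 88.4% (84.0 to 91.9), and the erythroid shares were 1.05% and 1.06%.

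**Figure D2:**
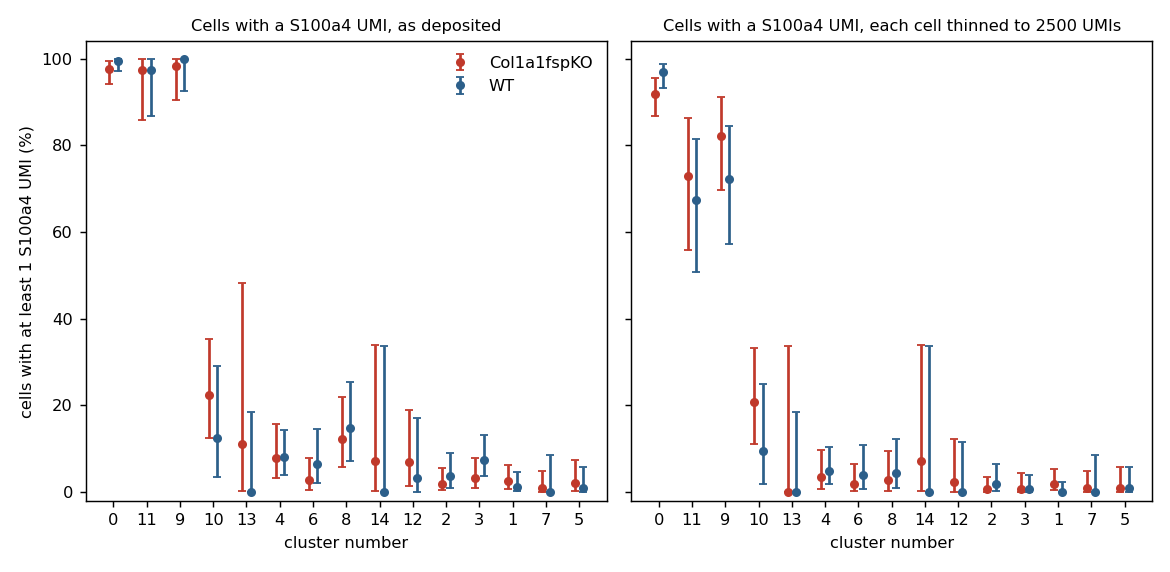
Share of cells with at least 1 S100a4 UMI (y axis, percent) in each cluster (x axis, same order as the plot of levels), as deposited on the left and with each cell thinned to 2500 UMIs on the right. Points are the 2 libraries and bars are exact 95% binomial intervals. Clusters 0, 11 and 9 stay at 67.5% or above after thinning, while cluster 8 drops to 2.70% and 4.41%.

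The counts per cell separated the monocyte clusters from the rest. In the monocyte clusters a cell held 7 S100a4 UMIs at the median in both libraries, with a highest value of 32 in both. Of the other cells, 991 of 1042 in Col1a1fspKO and 846 of 893 in WT had none, and 37 and 36 had exactly 1. Cells with 2 or more UMIs numbered 264 in Col1a1fspKO, of which 250 (94.7%) were in the monocyte clusters, and 278 in WT, of which 267 (96.0%) were. Within cluster 0, counts thinned to 2500 UMIs had a mean of 3.38 and 3.78 per cell and a variance 1.43 and 1.45 times that mean, where Poisson sampling alone gives a ratio near 1.

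**Figure D3:**
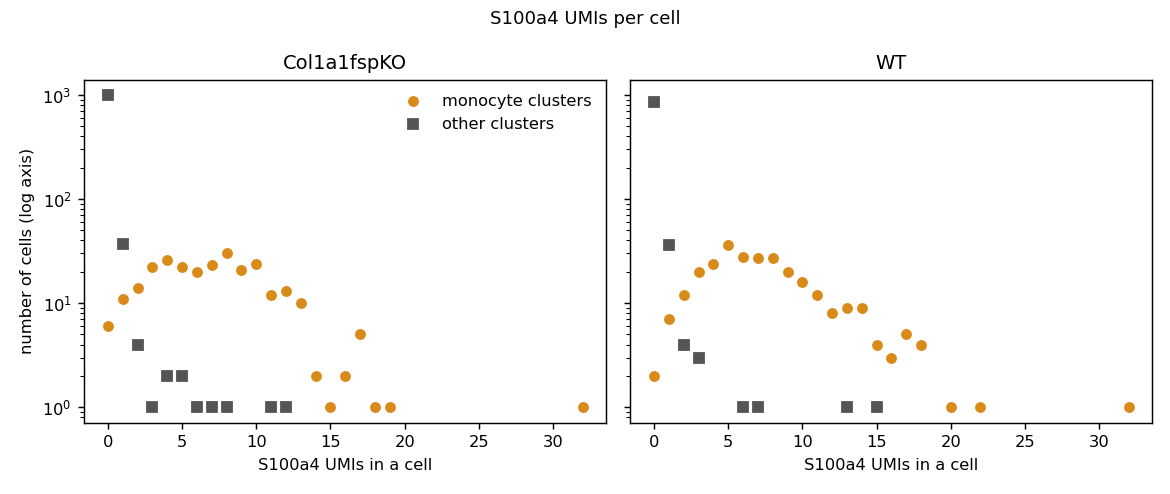
Number of cells (y axis, log scale) with a given number of S100a4 UMIs (x axis) in Col1a1fspKO (left) and WT (right), for the monocyte clusters and all other clusters. Cells outside the monocyte clusters sit almost all at 0 or 1 UMI, and the monocyte cells spread up to 32.

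Only 8 cells of the monocyte clusters, 6 in Col1a1fspKO and 2 in WT, had no S100a4 UMI. They held 2827 to 16210 UMIs. The 4 Col1a1fspKO cells among them in cluster 0 held 5083 or fewer, below the median of 5442 there, and the part of depth in the zeros was not tested. Of these cells 7 also lacked Fn1, the gene of fibronectin, which was seen in 84.9% of the other 535 monocyte cells. They carried 1 to 39 UMIs of the 6 monocyte markers, with a median of 7.5 against 23 in the other cells. In 4 of the cells without S100a4, all in cluster 0, there were at least 9 UMIs of Cd74, the invariant chain of antigen-presenting cells. Cd74 was not counted in the other monocyte cells, so whether such counts are unusual was not tested.

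S100a4 differed along the myeloid stages. Cluster 8, with the granule genes Mpo, Elane, Prtn3 and Ctsg and the progenitor gene Cd34 among its leading genes, had 11 UMIs in each library, in 9 of 74 cells (12.2%) and 10 of 68 cells (14.7%). These cells were deep, with medians of 8948 and 10631 UMIs, and after thinning the shares were 2.70% and 4.41%. No cell of cluster 8 held more than 2 S100a4 UMIs. Cluster 9 stood 43.8-fold (24.1 to 88.5) above cluster 8 in Col1a1fspKO and 48.4-fold (26.7 to 97.9) in WT. In cells of cluster 8 with at least 5 monocyte marker UMIs, the level was 13.7 CPM in Col1a1fspKO and 19.6 CPM in WT, beside 13.6 and 9.69 CPM in the remaining cells, and the intervals overlapped.

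Within cluster 9, cells with a UMI of the proliferation genes Mki67 or Top2a had a lower S100a4 CPM than cells without. In Col1a1fspKO 41 cells with such a UMI had 517 CPM (453 to 586) and 15 cells without had 946 CPM (768 to 1152), a ratio of 1.83 (1.43 to 2.32). In WT it was 515 CPM (446 to 592) in 32 cells and 1089 CPM (907 to 1297) in 15 cells, a ratio of 2.11 (1.68 to 2.66). The cells without these UMIs were shallower, with medians of 6068 and 7198 UMIs against 10134 and 12923.5, and their monocyte marker sum was higher, at 3059 and 3120 CPM against 2153 and 2081. Per cell, the median S100a4 count in Col1a1fspKO was 6 UMIs both with and without a Mki67 or Top2a UMI. In WT it was 5 with and 8 without. The part of depth and of monocyte content in the difference in CPM was not tested. In cluster 11, 36 of 37 cells in Col1a1fspKO and 40 of 40 in WT had a Mki67 or Top2a UMI. In cluster 0, only 6 and 11 cells had one, and their 1039 CPM (742 to 1415) and 1079 CPM (849 to 1352) stood beside 1356 CPM (1281 to 1434) and 1466 CPM (1389 to 1547) in the others.

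**Figure D4:**
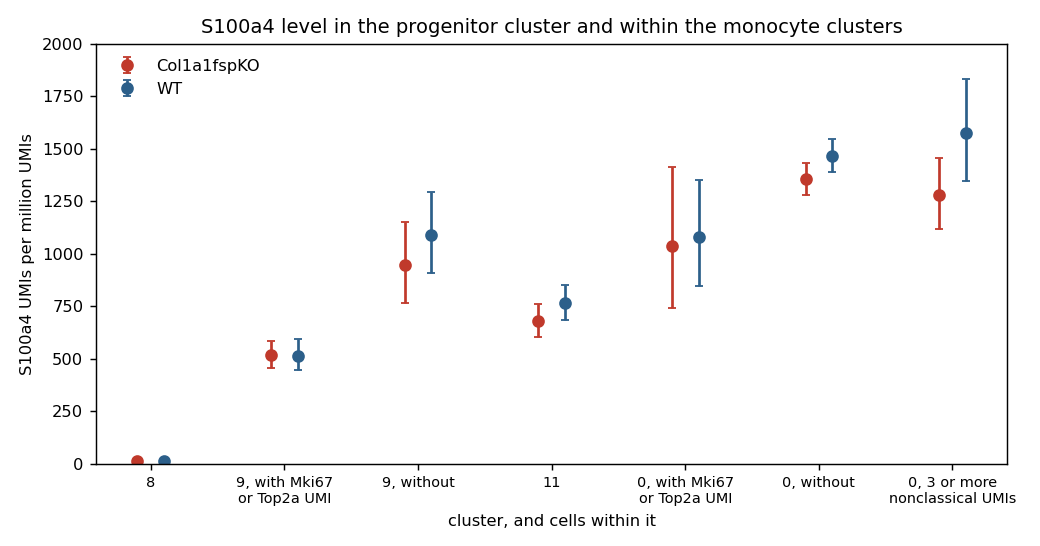
S100a4 level (y axis, CPM) in cluster 8 and in cells within the monocyte clusters, split by UMIs of Mki67 or Top2a, and in cells of cluster 0 with 3 or more nonclassical UMIs, a subset that overlaps the 2 groups beside it. Points are the 2 libraries and bars are 95% counting intervals. Cluster 8 lies at 13.6 and 13.4 CPM, the proliferating cells of cluster 9 at 517 and 515 CPM, and those of cluster 0 at 1039 and 1079 CPM.

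Cells of cluster 0 with at least 3 UMIs of Nr4a1, Cx3cr1, Ace, Treml4 and Eno3, genes of nonclassical monocytes, had S100a4 levels near those of cells with none of them. In Col1a1fspKO the levels were 1280 CPM in 32 cells and 1293 CPM in 74 cells, a ratio of 0.989 (0.843 to 1.16). In WT they were 1575 CPM in 20 cells and 1419 CPM in 81 cells, a ratio of 1.11 (0.930 to 1.32). This gate is a range and not a cell type, since 76 cells had 2 or 3 such UMIs. Cells of the monocyte clusters with at least 3 UMIs of conventional dendritic cell markers were few, 9 and 7. Their S100a4 was lower than in the rest of the monocyte clusters, with ratios of 0.688 (0.529 to 0.881) and 0.513 (0.350 to 0.727).

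Neutrophils carried almost no S100a4 at any stage. The immature cells of cluster 1, with the granule genes Ltf, Lcn2, Camp and Ngp among its leading genes, gave 4 UMIs over 159 cells in Col1a1fspKO and 2 over 156 cells in WT. The maturing cells of cluster 2, led by the granule proteases Mmp8 and Mmp9, gave 3 over 157 and 4 over 110. The mature cells of cluster 7, with Retnlg among its leading genes, gave 1 over 111 cells and 0 of 41 cells, which allows a share of cells with a UMI of up to 7.32% by the limit of 3 counts and 8.60% by the exact interval. At median depths of 2994 and 3335 UMIs, cells that express the gene at a low level can show no UMI. Over these 3 stages the level was 4.84 CPM (2.09 to 9.53) and 4.65 CPM (1.71 to 10.1), and 1.87% and 1.95% of cells had a UMI. The erythroid shares were near, at 2.11% and 1.06%, but from deeper cells. Median depth was 3621 and 3878 UMIs in these neutrophils, against 9422 and 11793.5 in erythroid cells. By level the erythroid cells were lower, at 1.68 and 0.796 CPM, with intervals that overlapped. The monocyte clusters stood 202-fold (102 to 467) and 232-fold (106 to 632) above these neutrophils. Mature over immature neutrophils gave a ratio of 0.514 with an interval of 0.0104 to 5.19 in Col1a1fspKO, and no ratio was formed in WT, where both stages had fewer than 3 UMIs. The log2 ratio in Col1a1fspKO was -0.96, with an interval of -6.58 to 2.38, but it was 3.66 with single cells assigned to stages by marker score. No direction with neutrophil maturation can be given from so few UMIs.

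The preneutrophils of cluster 4 had 22 and 46 UMIs, but few cells held them. In Col1a1fspKO 3 cells with at least 5 monocyte marker UMIs held 17 of the 22, and in WT 6 such cells held 42 of the 46. The 5 preneutrophils with 5 or more S100a4 UMIs had 14 to 33 monocyte marker UMIs, where the median of their cluster was 0. They also held 153 to 1309 UMIs of Camp and Ngp and 12001 to 15163 UMIs in all, above the cluster medians of 8375.5 and 8590, and none was a called doublet. In the remaining preneutrophils the level was 6.37 CPM (2.07 to 14.9) and 3.77 CPM (1.03 to 9.66). Whether the few high droplets held more than 1 cell was not tested.

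Outside the monocyte clusters, 11 cells in all held 5 or more S100a4 UMIs, and 7 of these had at least 5 monocyte marker UMIs. In WT pre-B-like cells of cluster 3, 6 of 16 UMIs came from 1 cell that was called a doublet and had 18 monocyte marker UMIs. In Col1a1fspKO the 7 UMIs of the basophil-like cluster 13 all came from 1 cell with 37 monocyte marker UMIs. A single cell gave 5 of the 7 UMIs of cluster 6 in Col1a1fspKO, and it had 2 monocyte and 6 T cell marker UMIs. The other 3 cells were in cluster 10 of Col1a1fspKO, with 0 to 3 monocyte marker UMIs and 7 to 29 T cell marker UMIs.

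The libraries were farthest apart in cluster 10 among the clusters with a ratio. In Col1a1fspKO 13 of 58 cells (22.4%, 12.5 to 35.3) had a S100a4 UMI and together held 45, and in WT 4 of 32 cells (12.5%, 3.51 to 29.0) held 5. The 3 highest Col1a1fspKO cells held 11, 8 and 6 UMIs, and the highest WT cell held 2. The level was 5.27-fold (2.10 to 17.0) higher in Col1a1fspKO. Counting only cells with under 5 monocyte marker UMIs, 43 and 3 UMIs gave a ratio of 8.09 (2.59 to 40.7). In each library this left out 2 cells that together held 2 S100a4 UMIs. Ccr2 made up all 858 CPM of their marker sum in WT and 569 of 626 CPM in Col1a1fspKO. Their natural killer marker sum was 7723 CPM in WT and 2845 CPM in Col1a1fspKO. The ratio can therefore not be read as one with monocyte content removed. Without the 3 highest Col1a1fspKO cells 20 of the 45 UMIs were left, and the ratio to all 5 WT UMIs was 2.55 (0.927 to 8.68). No WT cell was left out there, although the 3 highest WT cells held 4 of the 5 UMIs. The difference between the shares of cells was 9.91 percentage points with an interval of -7.98 to 24.3, so the higher level was not matched by a share that differed beyond counting error. Of 1066 genes with at least 50 UMIs in cluster 10, 92 (8.63%) were more than 1.5-fold higher in Col1a1fspKO. Of all tested genes 0.938% lay farther from their median log2 ratio (0.09) than S100a4 did (2.40). S100a4 just met the minimum with 50 UMIs, 45 of them from Col1a1fspKO, where it was high. Genes at the minimum scatter most from counting error, so this rank does not measure how rare the difference was.

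In cells of cluster 10 with more T cell than natural killer marker UMIs, Col1a1fspKO had 35 UMIs in 7 of 37 cells (207 CPM, 144 to 288) and WT had 3 UMIs in 2 of 19 cells (36.7 CPM, 7.58 to 107). In those with more natural killer marker UMIs, Col1a1fspKO had 10 UMIs in 6 of 21 cells (81.1 CPM, 38.9 to 149) and WT had 2 UMIs in 2 of 13 cells (22.3 CPM, 2.70 to 80.5). Col1a1fspKO over WT gave 5.63 (1.78 to 28.6) for the T cell subset, where the 3 highest cells held 25 of the 35 UMIs. It gave 3.64 (0.776 to 34.2) for the natural killer subset, an interval that includes 1. Cluster 10 of Col1a1fspKO held a mean of 0.672 Lyz2 and 1.74 Camp UMIs per cell, against 8.88 and 30.7 in WT. The shares of cells with a UMI were closer, 50% and 65.6% for Lyz2 and 81.0% and 87.5% for Camp. For Ngp the share was higher in Col1a1fspKO, at 74.1% against 62.5%. Whether a few cells made up the higher WT means was not tested. For each 1000 UMIs of Lyz2, the lysozyme gene of myeloid cells, cluster 10 held 1154 of S100a4 in Col1a1fspKO and 17.6 in WT. These values rest on 39 and 284 Lyz2 UMIs, and cluster 0 had 47.3 and 42.7.

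S100a8, an abundant neutrophil transcript, was seen in 92.9% or more of the cells of every cluster in both libraries. The amount of free RNA was not measured. Erythroid cells held 63.3 and 31.1 S100a8 UMIs per cell, beside 2 and 1 S100a4 UMIs over 95 and 94 cells. The part of free RNA in the low S100a4 counts outside the monocyte clusters was not tested.

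Between the genotypes, S100a4 in the monocyte clusters differed little. The intervals of the level were 932 to 1020 CPM and, for WT, 1033 to 1126 CPM, and Col1a1fspKO over WT gave 0.904 (0.849 to 0.962). That interval does not reach 1. Of 5732 genes with at least 50 UMIs in these clusters 59.0% lay farther from the median log2 ratio of all tested genes (-0.01) than S100a4 did (-0.15). S100a4 had 4006 UMIs there, and genes nearer 50 UMIs scatter more from counting error. This share therefore does not weigh for or against the interval. S100a4 was not among the 385 genes (6.72%) that differed by more than 1.5-fold in either direction. Each monocyte cluster gave a similar ratio, 0.933 (0.865 to 1.01) in cluster 0, 0.919 (0.787 to 1.07) in cluster 9 and 0.888 (0.759 to 1.04) in cluster 11. Over all cells the ratio was 0.925 (0.870 to 0.983). The monocyte clusters made up 20.4% and 23.6% of cells, but 22.7% and 22.5% of the UMIs to which CPM is scaled. Of the 6 monocyte markers in these clusters, Fn1 gave 0.772 (0.713 to 0.836) and Ccr2, the receptor that guides monocytes out of marrow, gave 1.25 (1.17 to 1.35), with F13a1, Csf1r, Ms4a6c and Ly86 between 0.879 and 1.02. Of 9 cell cycle genes, Ccnb1, encoding cyclin B1, was the 1 past 1.5-fold, higher in Col1a1fspKO at 1.88 (1.39 to 2.57), where 3.42% of all tested genes were.

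**Figure D5:**
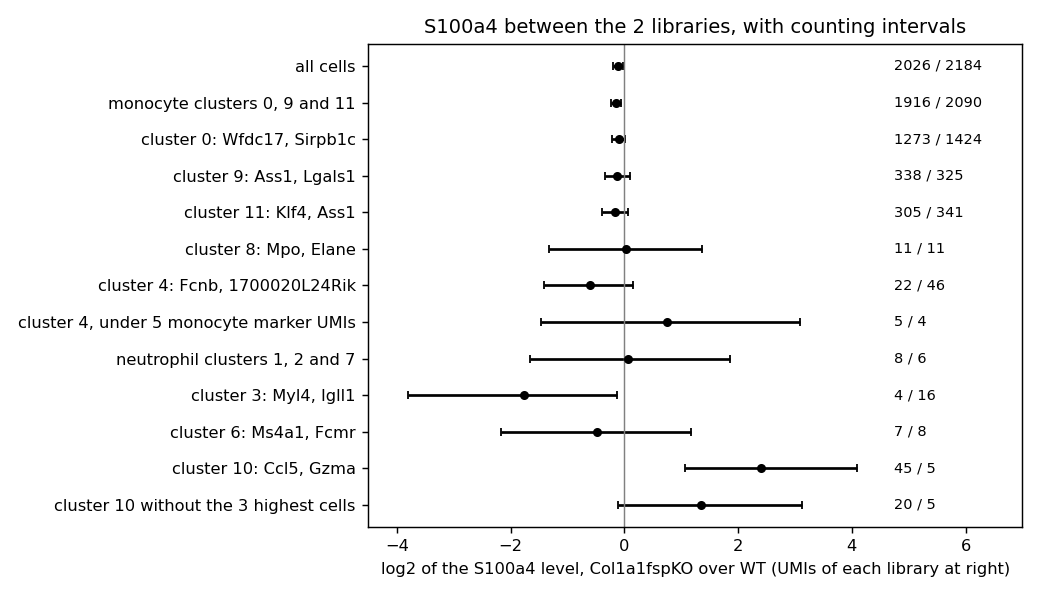
Log2 ratio of the S100a4 level in Col1a1fspKO over WT (x axis) for all cells and for clusters and cells within them (y axis). Bars are 95% counting intervals from 1 library per genotype, and the S100a4 UMIs of Col1a1fspKO and WT stand at right. Monocyte clusters lie just below 0 with narrow bars, and cluster 10 lies at 2.40, or at 1.35 without its 3 highest Col1a1fspKO cells.

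Summed over the neutrophil clusters the ratio was 0.564 (0.347 to 0.90) from 30 and 52 UMIs, most of them in the preneutrophil cells with monocyte transcripts. Its log2 value was -0.83, but -0.027 with CCA integration of the libraries before clustering. Over the immature, maturing and mature stages alone it was 1.04 (0.316 to 3.64). Cluster 8 gave 1.02 (0.40 to 2.59). In the B cell clusters 12 and 24 UMIs gave 0.541 (0.246 to 1.12). Cluster 3 alone, with 4 and 16 UMIs, gave 0.294 (0.0714 to 0.910), and 6 of its 16 WT UMIs were those of the called doublet.

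The cells that carried S100a4 also carried transcripts of blood cells. Of 312 S100a4-positive cells in Col1a1fspKO, 232 (74.4%) had a UMI of Ptprc, which encodes the pan-leukocyte antigen CD45, and in WT 223 of 321 (69.5%) did, beside 52.9% and 50.5% of all cells. A UMI of Ptprc, Laptm5, Vav1 or Coro1a was present in 310 of 312 and in 321 of 321, beside 94.4% and 94.9% of all cells. No cluster of fibroblast or other mesenchymal cells was found. Of 19 mesenchymal and endothelial markers 9 were listed in neither library, among them Col3a1, Dcn, Lum, Pdgfra, Acan, Col2a1, Myh11, Kitl and Fap. At least 99.2% of listed genes were seen in 3 or more cells, so a gene that is not listed may still have occurred in 1 or 2 cells.

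Among these markers, 118 UMIs of Cxcl12, the chemokine of marrow reticular cells, were found in 6 WT cells, of which 1 held 106. That cell also held 5 UMIs of Col1a2, 4 of Pdgfrb and 3 of Lepr, together with 536 of Camp, and it had no S100a4 UMI. None of the 6 cells with Cxcl12 had one. Cdh5, the endothelial cadherin and another Cre driver gene, gave 21 and 9 UMIs, of which 27 were in the plasmacytoid dendritic-like cluster 12. Acta2, encoding smooth muscle actin and also used to drive Cre, gave 59 and 39 UMIs, of which 46.9% were in the mature neutrophils of cluster 7 and 20.4% in cluster 0.

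Type I collagen was barely detected in the sequenced cells. Col1a1 gave 3 UMIs in 3 cells of Col1a1fspKO and was not listed in WT, and Col1a2 gave 11 UMIs in 6 cells of WT and was not listed in Col1a1fspKO. In each library 1 cell had both a collagen UMI and a S100a4 UMI. The reads of this chemistry come from the 3′ end, outside the floxed exons, and no row of the tables is named for Cre, so neither the deletion nor the activity of Cre can be read from these data.

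Some partners of S100A4 were also higher in the monocyte clusters, by smaller factors, and others were not. Of 11 chosen by name, Egfr was not listed in the libraries and Ppfibp1, Ager and Tlr4 gave 45 UMIs or fewer over both. Of the 7 others, 2 were more than 2-fold higher in the monocyte clusters in both libraries (9.95% of all genes were). Anxa2, encoding annexin A2, had 600 and 604 CPM there against 177 and 120 CPM in other cells. S100a1, another S100 protein that can pair with S100A4, had 61.1 and 83.6 CPM against 29.8 and 39.0. Myh9, the heavy chain of non-muscle myosin IIA, had 54.4 and 70.7 CPM against 46.8 and 48.9. Trp53, the gene of p53, was higher outside the monocyte clusters, with 55.5 and 48.5 CPM against 77.5 and 84.9, and so were Sept6 and Sept7 of the septin cytoskeleton, while Sept2 had 63.1 and 69.7 CPM against 41.9 and 38.3. Between genotypes in the monocyte clusters, 0 of these 7 differed by more than 1.5-fold (6.72% of all genes did), and their median log2 ratio was -0.14 against -0.01 for all tested genes. With 1 library per genotype no test was run.

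Of 7 other S100 genes with at least 50 UMIs, 3 (S100a6, S100a10 and S100a1) were more than 2-fold above other cells in the monocyte clusters in both libraries, with 2060 and 2391 CPM against 934 and 509 for S100a6 and 1212 and 1065 CPM against 193 and 165 for S100a10 (9.95% of all genes passed this). S100a13 was 1.90- and 1.97-fold higher there, and S100a11 gave ratios of 0.732 and 0.882. S100a8 and S100a9 ran the opposite way, with 1.79% and 1.77% of their WT UMIs in the monocyte clusters. Of the neighbours of S100a4, S100a3 gave 19 and 3 UMIs with none in the monocyte clusters, and S100a5 was not listed.

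The genes whose level over 13 clusters was most like that of S100a4 were ranked by the lower of the correlations in the 2 libraries, as a description without a p-value, since all clusters share the libraries. Fn1 came highest with r = 0.936 in Col1a1fspKO and 0.974 in WT. It was followed by Plcb1 (phospholipase C beta 1), Mnda, Naaa (a lysosomal amidase), F13a1 (a subunit of coagulation factor XIII), Aif1, Cd300lg, Stxbp6, Trafd1 and Ccdc109b, of which the last had 0.906 and 0.963. The median over 7888 genes of the lower r was 0.124. Fn1 had 718 and 857 CPM in cluster 0 and only 1.24 and 1.22 CPM in cluster 8. It was at 6.84 and 5.83 CPM in cluster 10, where S100a4 had 154 and 29.2. Of the 10 genes, all but Trafd1 had 86.1% or more of their UMIs in the monocyte clusters in both libraries, and Trafd1 had 54.8% and 52.0%.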

How the data were processed

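Bone marrow of 1 pool of 2 mice per genotype was sequenced with the 10x Genomics 3′ v2 chemistry. As deposited by the authors, the tables hold whole-number UMI counts, not normalized, for each listed gene in each kept cell. The submitters' processing notes name Cell Ranger (version not given in the sources used here), Seurat 3.5.3 and mm10. About 1000 cells per sample were stated, and the tables hold 1309 and 1169. The limits of the methods (200 to 7000 genes, at most 10% mitochondrial UMIs) removed no cell. Genes listed for 1 library were taken as 0 in the other. Cells of both libraries were clustered together in Seurat 5.3.0 (R 4.3.3) with 2000 variable genes, 27 principal components and resolution 0.8. All S100, Ly6 and Stfa genes and a few others were left out of the variable genes. Clusters were named from marker lists (mean z of log2(CPM + 10), at least 1, at least 3 markers in 10% of cells). Cluster 8 scored highest for stem and progenitor markers (2.09), with granulocyte-monocyte progenitor markers close behind (2.07). Of its 10 leading genes 5 were granulocyte-monocyte progenitor markers, so it was left unnamed.

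S100a4 UMIs were summed per cluster and library. Levels have exact Poisson intervals, shares Clopper-Pearson intervals, ratios exact binomial intervals given the summed counts, and differences of shares Newcombe intervals (scipy 1.17.1). UMIs of 1 cell are not independent of each other, so these intervals are a lower limit on the error. A count of 0 was taken to allow 3 counts. Doublets were called with Scrublet in scanpy 1.11.5, 5 in each library, and were kept. The interval and likeness steps were run on simulated Poisson counts. Those counts lack the spread beyond Poisson seen in cluster 0, so they cannot show how the intervals perform in these data. The named genes were S100a4 in every cluster, fixed lists of partners, driver genes, collagen, stromal, blood and S100 genes, and the 10 genes most alike. The gene, its lists and tests were chosen with earlier results of these data known. Alternatives were other clusterings, filters, depths and scalings.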

Additional observations from a re-analysis of the deposited data

Results flagged for a closer look

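S100a4 went in opposite directions in the T and natural killer cluster and in the monocyte clusters when Col1a1fspKO was set over WT. The log2 ratio was 2.40 in cluster 10, from 45 and 5 UMIs, and -0.15 in the monocyte clusters, from 1916 and 2090 UMIs, so the ratios lay 2.54 apart on the log2 scale. With 1 library per genotype this difference was not tested. The cells behind it were few, since the 3 highest Col1a1fspKO cells held 25 of the 45 UMIs and the log2 ratio without them was 1.35.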

How the results depend on the processing

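No paired analysis was possible because each genotype had 1 library. With 1 pool of mice per genotype, genotype cannot be told apart from pool, sort and library. The monocyte log2 ratio between genotypes (-0.15) ran from -0.16 to -0.14 over 12 alternatives. That of cluster 10 (2.40) ran from 1.35, without its 3 highest Col1a1fspKO cells, to 2.65 over 13 alternatives chosen after seeing the data. Over all cells (-0.11) it was -0.30 both with cells thinned to 2500 UMIs and as the mean of single-cell CPM. With only cells of at least 2909 UMIs, the higher of the 2 library minima, it was -0.044. In neutrophil classes (-0.83) it was -0.027 with CCA integration and stayed negative in all 12. Monocyte over other cells (5.89 in Col1a1fspKO, 6.26 in WT) kept its direction in all 13 alternatives each. It was 4.39 and 4.31 with single cells assigned by marker score, 6.30 and 7.58 without other cells holding 5 or more monocyte marker UMIs (chosen after seeing the data), 5.58 in Col1a1fspKO without the 20 most abundant genes, and in WT 7.15 after thinning and 6.9 as the mean of single-cell CPM. The monocyte share of S100a4 UMIs was 80.0% and 78.0% with single cells assigned by marker score, and 97.8% and 97.4% in WT after thinning and as the mean of single-cell CPM. Mature over immature neutrophils in Col1a1fspKO (-0.96) was 3.66, the opposite sign, with single cells assigned by marker score, and 8 of 12 alternatives gave a value. Thinning moved 13 of 30 cluster shares out of their intervals: to 92.0% and 96.8% in cluster 0, 82.1% and 72.3% in cluster 9, 73.0% and 67.5% in cluster 11, 2.70% and 4.41% in cluster 8, 0.794% and 0.741% in cluster 3, and 0% in cluster 1 and cluster 12 of WT and cluster 13 of Col1a1fspKO. Genes past 1.5-fold in the monocyte clusters numbered 1156 with at least 20 UMIs, against 385 with at least 50. Of the 10 genes most like S100a4, 7 stayed with at least 20 UMIs and 7 at resolution 1.2. The causes of these shifts were not tested.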
